A study of Mus musculus with 2 samples.

Results

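The 9 genes of the elastic fibre and its microfibrils, Eln, Fbn1, Fbn2, Fbln1, Fbln2, Fbln5, Mfap2, Mfap4 and Mfap5, were taken by their symbols from the 32285 features of a mouse lung single-cell RNA-seq study, and all 9 were found. The study has 2 libraries of 10x Genomics 3′ chemistry, 1 from lungs of mice given bleomycin and 1 from lungs of mice given saline. Mice of both groups were 8 to 10 weeks old and carried Lepr-CreERT2 with a Rosa26-tdTomato reporter, and bleomycin, a DNA-damaging drug, is widely used to injure the mouse lung and bring on fibrosis. From both, live tdTomato+ cells without CD45, EpCAM or CD31, the surface proteins of leukocytes, epithelium and endothelium, were sorted. In such mice the promoter of the leptin receptor gene drives the recombinase, so the cells are those whose lineage was marked through that gene and not the whole lung mesenchyme. Neither tdTomato nor the recombinase is among the features, so the mark could not be checked in the counts. The labels state neither the dose, nor the days after treatment, nor how many mice went into each library.

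An elastic fibre has a core of elastin, encoded by Eln, laid down on a scaffold of microfibrils. The microfibrils are built from the fibrillins Fbn1 and Fbn2, and the small glycoproteins encoded by Mfap2 and Mfap5 bind to them. The fibulins are adaptor proteins of the fibre surface: that encoded by Fbln5 brings tropoelastin to microfibrils and is needed for elastic fibres in mice, while those of Fbln1 and Fbln2 bind elastin, fibrillin and basement membrane. Mfap4 encodes a protein that binds elastin and fibrillin and promotes fibre assembly. In the lung these fibres give alveolar walls, airways and vessels their recoil, elastin is made mainly while the lung grows, and fibrillin microfibrils also hold latent TGF-beta in the matrix.

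Promoters of 5 of the 9 genes were taken from RefSeq's table for GRCm38.p6, the build also called mm10. Each window runs from 250 bases before a start that RefSeq lists to 50 after it. No entry was found for Eln, Mfap4 and Mfap5. Fbn2 was left out of the search, so the motif counts say nothing about it. These starts are not the gene ends of the GENCODE annotation given further on: the windows of Fbn1, Fbln2 and Mfap2 begin inside the GENCODE gene, and that of Fbln5 lies wholly before it. The first listed window is shown for 3 genes that were higher together after bleomycin, Fbn1, Fbln2 and Mfap2, and for 2 that were lower, Fbln1 and Fbln5. The windows are chr2:125506389-125506688 on the minus strand for Fbn1, chr6:91212514-91212813 on the plus strand for Fbln2, chr4:141010431-141010730 on the plus strand for Mfap2, chr15:85205699-85205998 on the plus strand for Fbln1 and chr12:101819070-101819369 on the minus strand for Fbln5. Capitals mark the letters of a GC box (GGGCGG) or a SMAD element (CAGACA) on either strand, so a motif of the opposite strand appears as its reverse complement.
Fbn1: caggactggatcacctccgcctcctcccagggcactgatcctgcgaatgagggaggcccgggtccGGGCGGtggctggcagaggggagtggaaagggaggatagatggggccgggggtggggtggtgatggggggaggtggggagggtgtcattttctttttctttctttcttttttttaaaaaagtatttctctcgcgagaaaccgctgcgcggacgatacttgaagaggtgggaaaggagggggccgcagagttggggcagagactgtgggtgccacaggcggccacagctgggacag
Fbln2: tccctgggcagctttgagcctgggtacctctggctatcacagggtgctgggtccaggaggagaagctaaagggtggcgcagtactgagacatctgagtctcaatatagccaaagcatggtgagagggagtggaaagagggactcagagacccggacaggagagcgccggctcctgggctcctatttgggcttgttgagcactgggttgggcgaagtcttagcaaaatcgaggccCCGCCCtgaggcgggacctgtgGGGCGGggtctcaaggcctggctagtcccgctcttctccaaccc
Mfap2: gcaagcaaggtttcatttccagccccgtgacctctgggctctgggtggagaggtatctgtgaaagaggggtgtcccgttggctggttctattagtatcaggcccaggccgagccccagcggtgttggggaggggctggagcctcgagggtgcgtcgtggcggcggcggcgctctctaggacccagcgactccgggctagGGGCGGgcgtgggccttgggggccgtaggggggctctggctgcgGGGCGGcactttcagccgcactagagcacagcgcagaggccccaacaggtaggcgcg
Fbln1: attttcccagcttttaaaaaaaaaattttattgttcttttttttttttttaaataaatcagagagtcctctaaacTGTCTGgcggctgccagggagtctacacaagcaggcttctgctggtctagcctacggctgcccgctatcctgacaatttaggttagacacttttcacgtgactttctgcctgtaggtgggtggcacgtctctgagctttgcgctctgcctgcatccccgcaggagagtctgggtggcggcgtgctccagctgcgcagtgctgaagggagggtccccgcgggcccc
Fbln5: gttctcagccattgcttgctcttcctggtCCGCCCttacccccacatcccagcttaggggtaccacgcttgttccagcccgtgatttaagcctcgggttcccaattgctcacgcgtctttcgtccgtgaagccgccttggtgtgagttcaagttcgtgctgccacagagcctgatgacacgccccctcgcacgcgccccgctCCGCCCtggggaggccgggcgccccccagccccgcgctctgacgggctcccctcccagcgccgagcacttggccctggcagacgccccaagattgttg
A GC box is in 4 of these 5 windows, those of Fbn1, Fbln2, Mfap2 and Fbln5, and in 35.7% of the 32851 promoters of that length in the table. The SMAD letters are in the window of Fbln1, and in 21.0% of all promoters. The TATA box (TATAAA) is in none of the 5 windows and in 13.6% of all promoters. The AP-1 letters (TGANTCA) are in none of the 5 and in 7.81% of all, the TEAD letters (GGAATG) in none and in 14.7%, and the CArG box in none and in 1.63%. The table lists 8 windows for the 5 genes. Counted over all 8, the GC box is in 5, the SMAD letters are in 4, the TEAD letters are in 1 and the other motifs are in none, so the tally depends on which start is taken. No motif found in the windows shown overlapped another. Of these motifs, none was in all 3 windows shown for higher genes and absent from both windows of the lower genes. The higher genes Eln, Fbn2 and Mfap5 have no window in this comparison.

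All 9 are protein-coding genes in the GENCODE annotation of mm10. Eln lies on chromosome 5 (134702593 to 134747323, minus strand), Fbn1 on chromosome 2 (125300594 to 125507993, minus), Fbn2 on chromosome 18 (58008623 to 58210487, minus) and Fbln1 on chromosome 15 (85205949 to 85286535, plus). Fbln2 and Mfap5 are both on the plus strand of chromosome 6, at 91212455 to 91272540 and at 122505845 to 122529290. Fbln5 lies on chromosome 12 (101746565 to 101819055, minus), Mfap2 on chromosome 4 (141010418 to 141015984, plus) and Mfap4 on chromosome 11 (61485431 to 61488900, plus). The 3′ end of Mfap4, where this chemistry reads, overlaps Mapk7 on the opposite strand.

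The bleomycin library held 10138 cell barcodes with 134732429 UMIs (unique molecular identifiers, counted transcripts) and a median of 11662 UMIs and 3083 genes a cell. Saline lungs gave 60937359 UMIs over 8396 barcodes, at a median of 6762 UMIs and 2286 detected genes. Both libraries hold 25 barcodes in common. Clusters were found without the 9 genes and their partner genes and named from marker lists, each name standing for cells like that type. The mesenchymal classes were fibrotic-like (2872 bleomycin and 21 saline cells), inflammatory-like (3474 bleomycin and 106 saline), adventitial-like (1289 bleomycin and 1438 saline), alveolar-fibroblast-like (305 bleomycin and 5733 saline), peribronchial-like (589 bleomycin and 408 saline), smooth-muscle-like (532 bleomycin and 357 saline) and proliferating (564 bleomycin and 52 saline). Small clusters led by genes that the sort should have removed also came through. The cluster of epithelial genes, led by Scgb1a1, Sftpc and Ager, had 189 bleomycin and 109 saline cells, and its levels are set beside results that lie near them. Cut more finely, a cluster of epithelial genes had 156 bleomycin and 106 saline cells. A separate endothelial-like cluster, led by Ccl21a, Cldn5 and Cdh5, had 33 bleomycin and 12 saline cells. Whether the cluster used here holds endothelial cells was not tested.

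With 1 library in each group the spread between animals is unknown, no treatment effect can be tested and no p-value is given. Levels are UMIs of a gene per 1000000 UMIs (CPM) summed over cells, and 95% intervals cover counting error only. A gene was called higher or lower when the libraries differed by at least 2-fold, the higher library had at least 10 CPM and the interval did not reach 1.

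Over the 9625 bleomycin and 8115 saline mesenchymal cells, Eln, both fibrillins, Mfap2, Mfap5 and Fbln2 were higher after bleomycin, Fbln1 and Fbln5 were lower, and Mfap4 was not called. By the size rule 6 of the 9 genes were higher, against 5.56% of the 8020 genes tested. Another 2 were lower, against 5.91% of all. The median log2 ratio of the 9 was 1.17, beside -0.04 over all genes tested. Eln had 4142 CPM in bleomycin cells against 765 CPM in saline cells, a ratio of 5.42 (5.36 to 5.47). Fbn1, the main fibrillin of adult tissue, had 697 CPM in bleomycin and 309 CPM in saline cells, 2.25-fold higher (2.22 to 2.29). Both differences are far wider than counting error, though counting error is the only error that 1 library a group can show.

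Fbn2, a fibrillin mainly of embryonic tissue, differed by the largest factor of the 9. It had 2146 UMIs in bleomycin cells, or 16.5 CPM, against 15 UMIs in saline cells, or 0.254 CPM, a ratio of 64.8 (39.2 to 116). The saline level rests on so few counts that the interval is wide, and Fbn2 was low in both libraries.

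Among the microfibril-associated genes, Mfap2 had 189 CPM in bleomycin and 70.8 CPM in saline cells (ratio 2.68, 2.59 to 2.76), and Mfap5 had 1218 CPM in bleomycin and 607 CPM in saline cells (2.005, 1.98 to 2.03), just at the 2-fold limit. Mfap4 went the other way without a call, with 1527 CPM in bleomycin and 2423 CPM in saline cells (0.630, 0.626 to 0.635). The fibulins split. Fbln2 had 154 CPM in bleomycin and 41.5 CPM in saline cells (3.72, 3.57 to 3.88). Fbln1 had 170 CPM in bleomycin and 390 CPM in saline cells, 2.30-fold lower after bleomycin. Fbln5 had 46.2 CPM in bleomycin and 135 CPM in saline cells, 2.92-fold lower. With the level of the epithelial-gene cluster of the same library taken off, 4 genes were higher, Eln (4.70), Fbn2 (45.97), Fbln2 (2.64) and Mfap2 (2.50), while Fbn1 (1.96) and Mfap5 (1.72) lost their calls. Fbln1 (0.370) and then also Mfap4 (0.492) were lower. Fbln5 had no ratio left, because its level in the epithelial-gene cluster was the higher one in both libraries. In bleomycin the 10% of that cluster's cells with most of a gene held at least 78.4% of its UMIs, save for Fbln5 (46.6%). The level taken off is thus not shared evenly by its cells. Calls gained or lost by taking it off, here and below, are given as a description only. The sums over all mesenchymal cells mix the level in each cell with the number of cells of each kind. The next values take these apart only as far as the clusters do.

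**Figure D1:**
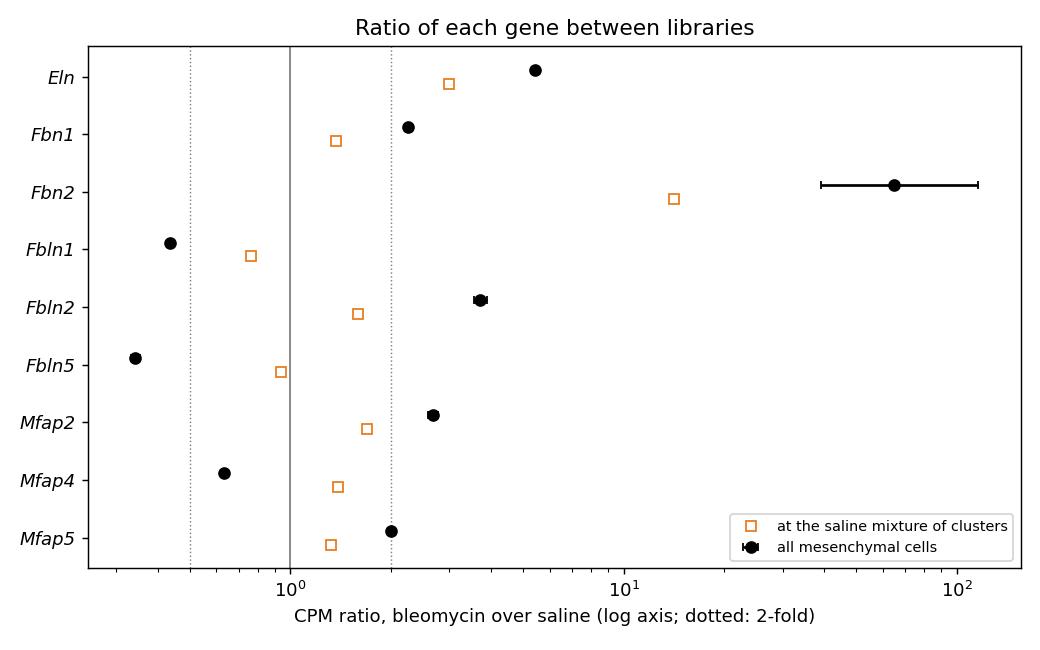
Ratio of summed CPM, bleomycin over saline, for each gene (log axis, dotted lines at 2-fold either way). Filled points are all mesenchymal cells with 95% counting intervals, and open squares are the same ratio with the bleomycin clusters weighted as in the saline library; the squares of Fbln1 and Fbln5 stand nearer to 1 than their points, and that of Mfap4 lies on the other side of 1.

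The overall ratios moved with the mixture of clusters. With the bleomycin levels of the 7 mesenchymal clusters that had at least 50 cells in both libraries weighted by their saline share of UMIs, the ratio was 2.98 for Eln, 14.1 for Fbn2, 1.37 for Fbn1, 1.70 for Mfap2, 1.60 for Fbln2, 1.39 for Mfap4 and 1.32 for Mfap5. Only Eln and Fbn2 of the 9 were past 2-fold at the saline mixture. For Fbln1 it was 0.761 and for Fbln5 0.934, so both lay closer to 1 than over all cells, and for Mfap4 the direction turned. With the bleomycin mixture instead, Fbn2 stood at 33.4, Eln at 1.82, Mfap2 at 1.61, Fbln2 at 1.55, Fbn1 at 1.37 and Mfap5 at 1.06. Mfap4 kept its direction there, at 0.879, Fbln5 stood at 0.682 and Fbln1 at 0.538, so the part that the mixture takes depends on which library gives the weights. The fibrotic-like cells are outside these weighted ratios because the saline library has 21 of them.

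**Figure D2:**
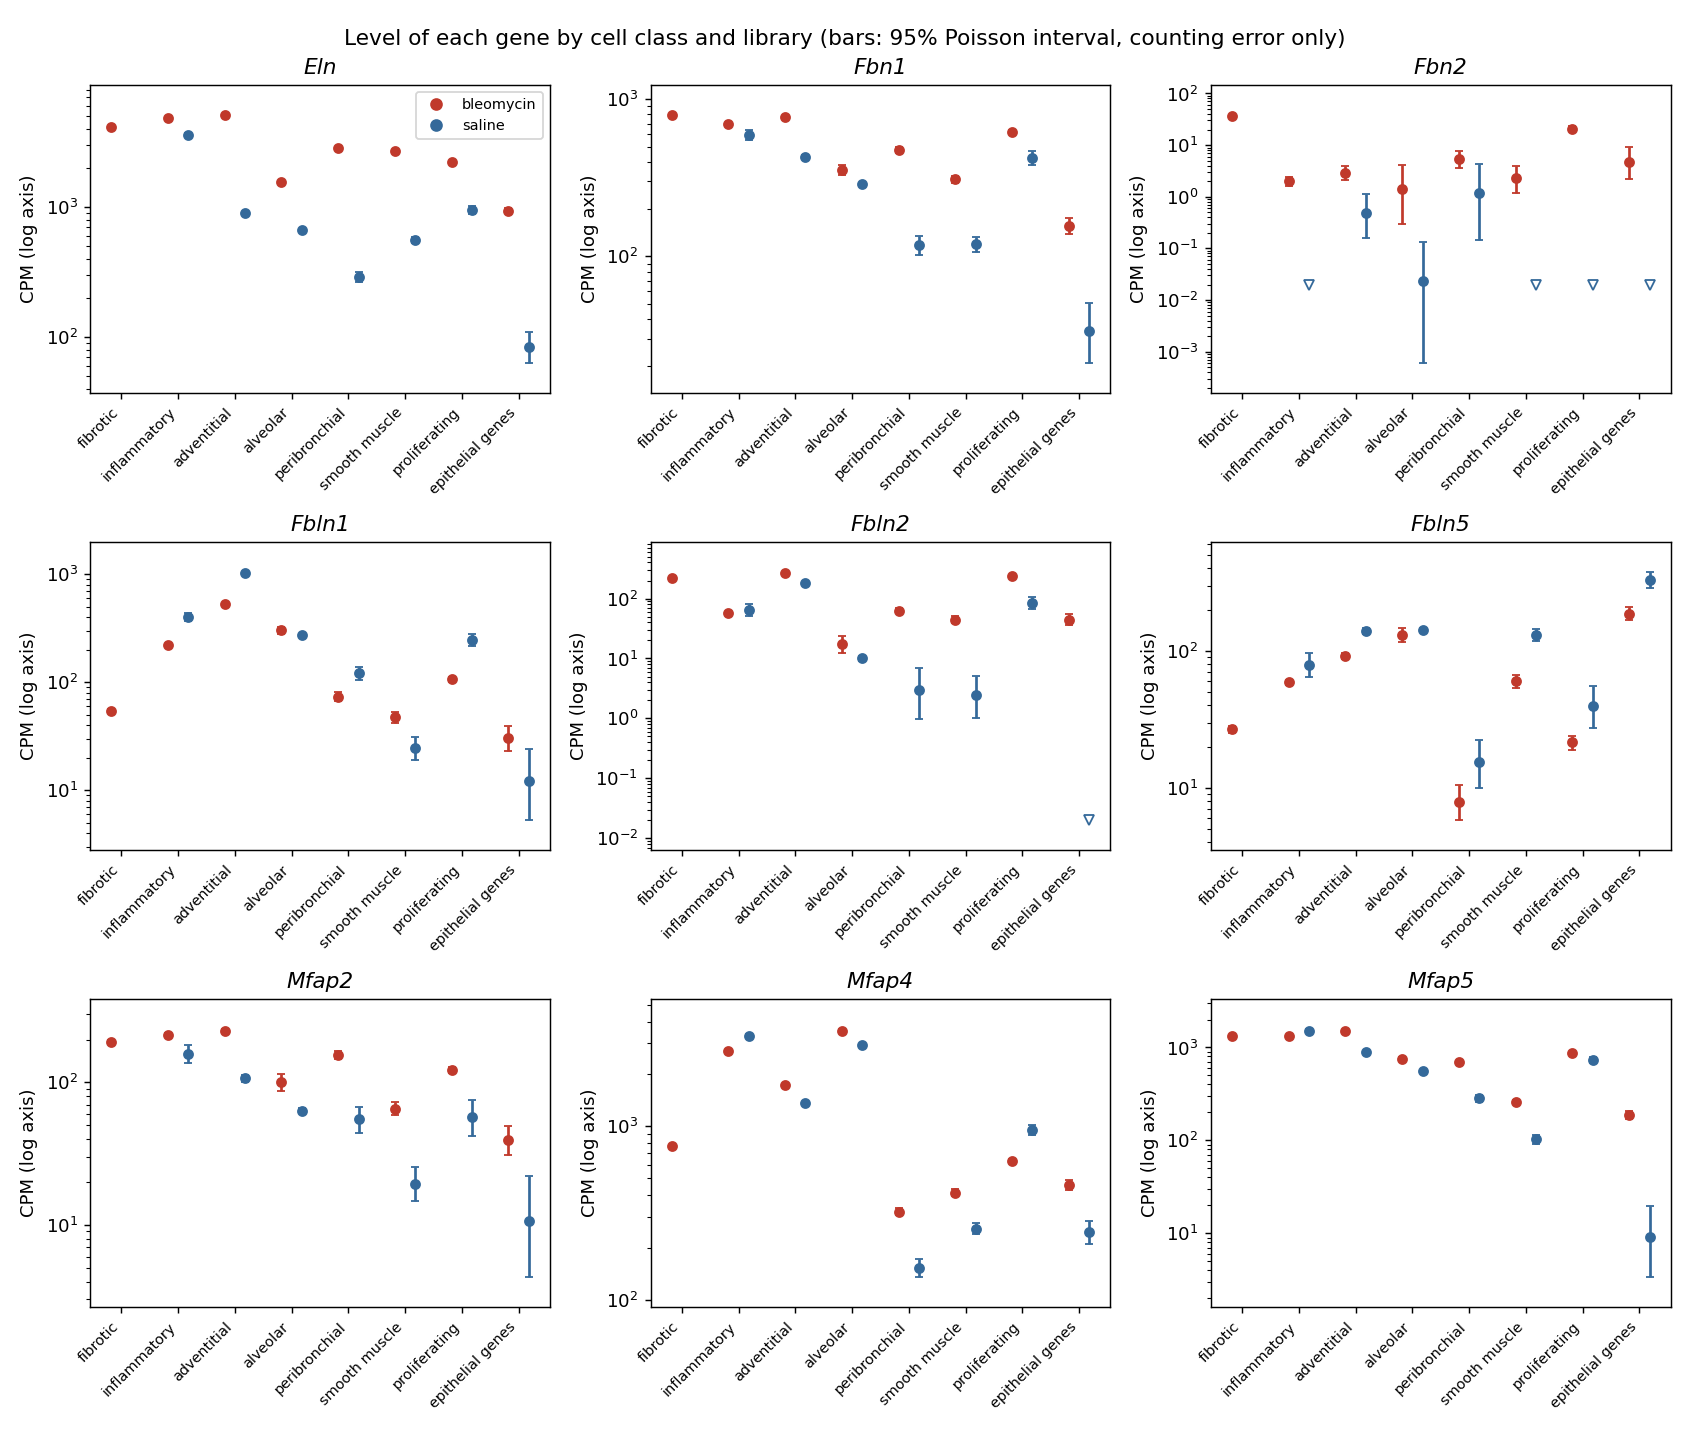
Level of each gene (CPM, log axis) in each cell class, bleomycin in red left of saline in blue, with 95% Poisson intervals; open triangles mark classes without a UMI and stand at an arbitrary low position, and fibrotic-like saline cells are left out because there are 21. Eln lies between 1551 and 5118 CPM in the bleomycin mesenchymal classes and between 290 and 3612 CPM in the saline ones.

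Elastin was widespread after bleomycin. Its level in bleomycin cells was 5118 CPM in the adventitial-like, 4855 in the inflammatory-like, 4156 in the fibrotic-like, 2871 in the peribronchial-like, 2708 in the smooth-muscle-like, 2243 in the proliferating and 1551 in the alveolar-fibroblast-like class. No neighbours in that order had overlapping intervals. In saline cells the order was 3612 CPM in the inflammatory-like, 959 in the proliferating, 900 in the adventitial-like, 671 in the alveolar-fibroblast-like, 561 in the smooth-muscle-like and 290 in the peribronchial-like class, where the proliferating and adventitial-like intervals overlapped. The inflammatory-like class, marked by acute-phase genes such as Saa3, Hp and Lcn2, thus had high Eln in both libraries, with a ratio of 1.34 (1.31 to 1.38), which the rule does not call. Cut more finely, the cluster named inflammatory-like, led by Saa3, Cxcl13 and Lcn2, had 1252 bleomycin and 0 saline cells. Cells of the class may therefore differ in kind between the libraries, which was not tested. Eln was higher by the rule in the other 5 classes compared: 9.91-fold in peribronchial-like (9.05 to 10.9), 5.68-fold in adventitial-like (5.56 to 5.81), 4.83-fold in smooth-muscle-like (4.58 to 5.09), 2.34-fold in proliferating (2.18 to 2.51) and 2.31-fold in alveolar-fibroblast-like cells (2.23 to 2.40).

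The alveolar-fibroblast-like class joins a pair of clusters. In the one led by Slc7a10, Eln had 1015 CPM in 86 bleomycin cells and 368 CPM in 2688 saline cells, 2.76-fold higher (2.52 to 3.02). In the other it had 1715 CPM in 219 bleomycin cells and 869 CPM in 3045 saline cells (1.97, 1.90 to 2.05), just short of the rule. In the Slc7a10 cluster Eln and Mfap2 were higher of 7 genes tested (2.75% of all) and none was lower (1.83%), while in the other none of 8 was higher (1.27%) or lower (0.931%). The interferon-responding list was the second to match that other cluster. The ratio of Eln in the class named alveolar-fibroblast-like moved by over 1.5 times with the clustering, which also changed the cells in it. It was 5.18 when clusters were cut more finely, where the class also took in a cluster led by Hp with 1467 bleomycin and 57 saline cells. With the stricter cell filter it was 4.74. There the class was the Slc7a10 cluster alone (132 bleomycin and 2510 saline cells), and a cluster of 204 bleomycin and 3203 saline cells took the interferon-responding name. The proliferating ratio fell just short of the rule, at 1.97, without the cells of highest doublet scores. In the cluster of epithelial genes Eln stood at 939 CPM in bleomycin and 83.7 CPM in saline cells, 11.2-fold higher (8.58 to 14.96), while its median cell had no Eln UMI in either library and the 10% of its cells with most Eln held 88.8% of these UMIs in bleomycin and 87.3% in saline. In that cluster 6 of the 8 genes tested were higher (10.8% of all genes tested there) and none was lower (6.13%). With its level taken off, Eln was 1.04-fold in alveolar-fibroblast-like and 1.49-fold in proliferating cells, neither of which the rule calls, and 9.37-fold in peribronchial-like, 5.12-fold in adventitial-like and 3.71-fold in smooth-muscle-like cells. What part RNA from outside the cell had in these levels was not tested.

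Class by class, the genes called differed in number. In peribronchial-like cells, marked by Hhip and Aspn, 6 of the 8 genes tested were higher, against 6.32% of all genes tested there, and none was lower (6.55% of all). Beside Eln these were Fbn1, Fbln2, Mfap2, Mfap4 and Mfap5, and the median log2 ratio of the 8 was 1.40 against 0.04 for all genes. Cnn1 also led this cluster, and the smooth-muscle list was the second to match it. The finer clustering had a peribronchial-like cluster (444 bleomycin and 351 saline cells) and a muscle cluster led by Cnn1 and Tnnt2 (159 bleomycin and 57 saline cells). Median depth in the class was 8932 UMIs in bleomycin and 3377 in saline. What part muscle cells or depth had in its ratios was not tested. In smooth-muscle-like cells 5 of 8 were higher (4.41% of all), namely Eln, Fbn1, Fbln2, Mfap2 and Mfap5, and Fbln5 was lower (2.36% of all). Proliferating cells had 4 of 9 higher (3.77% of all), Eln, Fbn2, Fbln2 and Mfap2, with Fbln1 lower (8.11% of all). That class is set apart by cell-cycle genes, and the fibrotic list was the second to match it. Its cells may differ in kind between the libraries, which was not tested. In adventitial-like cells Eln and Mfap2 were higher of 8 tested (3.28% of all) and none was lower (3.62%). Cut more finely, adventitial-like cells fell into a cluster led by Aqp1 and Adh7 (193 bleomycin and 962 saline cells) and one led by Pi16 and Ly6c1 (1142 bleomycin and 483 saline cells). Ratios of this class therefore also carry a shift in its make-up, and the size of that part was not tested. In alveolar-fibroblast-like cells Eln alone of 8 was higher (1.14% of all) and none was lower (0.686%). In inflammatory-like cells none of the 8 was higher (3.13% of all) or lower (1.98% of all), with a median log2 ratio of -0.17 against 0.04. These cells may also differ in kind between the libraries, as given above.

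Fbn1 was called in 2 classes. It had 476 CPM in bleomycin and 118 CPM in saline peribronchial-like cells (ratio 4.02, 3.48 to 4.67), and 310 CPM in bleomycin and 119 CPM in saline smooth-muscle-like cells (2.60, 2.31 to 2.93). The smooth-muscle ratio was 1.96 without the cells of highest doublet scores and 1.78 with the epithelial-cluster level taken off, neither of which the rule calls. In adventitial-like cells it stood at 773 CPM in bleomycin and 429 CPM in saline (1.80, 1.74 to 1.87), and in alveolar-fibroblast-like cells at 356 CPM in bleomycin and 289 CPM in saline (1.23, 1.14 to 1.33). Its highest bleomycin levels, 789 CPM in fibrotic-like and 773 CPM in adventitial-like cells, had overlapping intervals.

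Fbn2 was largely a gene of the fibrotic-like cells, which are marked by Cthrc1, Spp1 and Postn. Its level in bleomycin cells was 37.0 CPM there, 20.8 CPM in proliferating cells and at most 5.35 CPM in the other mesenchymal classes. The fibrotic-like class held 79.0% of the bleomycin Fbn2 UMIs and 35.2% of all bleomycin mesenchymal UMIs. Even in saline, 7 of the 15 Fbn2 UMIs were in the 21 fibrotic-like cells, which are too few to compare. In proliferating cells Fbn2 was at least 5.97-fold higher, taken against a floor of 3 counts in the saline class, which had none, and the 95% interval of the ratio starts at 4.82. The cluster of epithelial genes had 4.78 CPM in bleomycin and none in saline, and the intervals of the other mesenchymal classes reach or lie under that level.

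Mfap2 was higher in 4 classes. It had 156 CPM in bleomycin and 55.0 CPM in saline peribronchial-like cells (2.84, 2.29 to 3.55), 65.4 CPM in bleomycin and 19.5 CPM in saline smooth-muscle-like cells (3.35, 2.52 to 4.54), 123 CPM in bleomycin and 56.9 CPM in saline proliferating cells (2.17, 1.63 to 2.94) and 229 CPM in bleomycin and 107 CPM in saline adventitial-like cells (2.14, 2.00 to 2.30). With the epithelial-cluster level taken off, the adventitial ratio of Mfap2 (1.97) and the proliferating one (1.82) lost their calls, while the peribronchial (2.63) and smooth-muscle ones (2.94) did not. Mfap5 had 694 CPM in bleomycin and 283 CPM in saline peribronchial-like cells (2.45, 2.23 to 2.71), and 261 CPM in bleomycin and 103 CPM in saline smooth-muscle-like cells (2.54, 2.24 to 2.90). The smooth-muscle ratio of Mfap5 turned to 0.857 without the cells of highest doublet scores. It was 0.789, and the peribronchial ratio 1.85, with the epithelial-cluster level, 187 CPM in bleomycin and 9.13 CPM in saline, taken off.

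Mfap4 was above all a gene of alveolar-fibroblast-like and inflammatory-like cells. It stood at 3551 CPM in bleomycin and 2929 CPM in saline alveolar-fibroblast-like cells (1.21, 1.18 to 1.24), and at 2710 CPM in bleomycin and 3315 CPM in saline inflammatory-like cells (0.818, 0.792 to 0.844). Fibrotic-like bleomycin cells had 769 CPM. With the epithelial-cluster level taken off, the Mfap4 ratio in proliferating cells was 0.249. In bleomycin 10% of that cluster's cells held 93.8% of its Mfap4 UMIs, so no lower level is read from this ratio. As counted, no class but the peribronchial-like one had Mfap4 called, while 86.0% of its saline UMIs came from alveolar-fibroblast-like cells and 60.5% of its bleomycin UMIs from inflammatory-like cells. In peribronchial-like cells it had 322 CPM in bleomycin and 153 CPM in saline (2.11, 1.85 to 2.42). Both values lie under those of the cluster of epithelial genes, 456 CPM in bleomycin and 245 CPM in saline, and the ratio was 1.75 without the cells of highest doublet scores.

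The fibulins had a class pattern each. Fbln1 was highest in adventitial-like cells, with 525 CPM in bleomycin and 1030 CPM in saline (0.509, 0.494 to 0.525), which just missed the rule. The make-up of that class differed between libraries, as given above. It was lower in proliferating cells, with 106 CPM in bleomycin and 246 CPM in saline (2.32-fold lower), and stood at 54.2 CPM in fibrotic-like bleomycin cells. With the epithelial-cluster level taken off, the Fbln1 ratio also passed the limit in adventitial-like (0.486), inflammatory-like (0.490) and peribronchial-like cells (0.395). In bleomycin 10% of that cluster's cells held 100% of its Fbln1 UMIs, so no lower level is read from these ratios. Fbln5 had 131 CPM in bleomycin and 142 CPM in saline alveolar-fibroblast-like cells (0.922, 0.815 to 1.04), an interval that holds 1. It was lower in smooth-muscle-like cells, with 60.2 CPM in bleomycin and 130 CPM in saline (2.16-fold lower). Fbln5 was higher in the cluster of epithelial genes than in any mesenchymal class, at 187 CPM in bleomycin and 330 CPM in saline cells, so its levels in the mesenchymal classes all lie under that of those cells.

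Fbln2 was an adventitial gene in saline and was also found in fibrotic-like cells after bleomycin. Adventitial-like cells had 270 CPM in bleomycin and 180 CPM in saline (1.497, 1.42 to 1.58) and held 75.8% of the saline Fbln2 UMIs. Fibrotic-like bleomycin cells had 219 CPM and 49.9% of the bleomycin Fbln2 UMIs. In inflammatory-like cells, at 57.7 CPM in bleomycin and 64.5 CPM in saline, the ratio of 0.895 became 0.202 with the epithelial-cluster level taken off. That level was taken from bleomycin alone, as the saline cluster had no Fbln2 UMI. In bleomycin 10% of the cluster's cells held 97.6% of its Fbln2 UMIs and the median cell had none. The 0.202 is therefore not read as a lower level of Fbln2 in these cells. Proliferating cells had 241 CPM in bleomycin and 85.9 CPM in saline (2.81, 2.23 to 3.59). In peribronchial-like cells Fbln2 had 62.8 CPM in bleomycin against 2.96 CPM, or 5 UMIs, in saline (21.3, 9.02 to 65.8). In smooth-muscle-like cells it had 44.4 CPM in bleomycin against 2.48 CPM, or 7 UMIs, in saline (17.9, 8.54 to 44.98). The cluster of epithelial genes had 44.6 CPM in bleomycin and none in saline, so the smooth-muscle level does not stand above it and the peribronchial level stands 18.2 CPM above it.

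**Figure D3:**
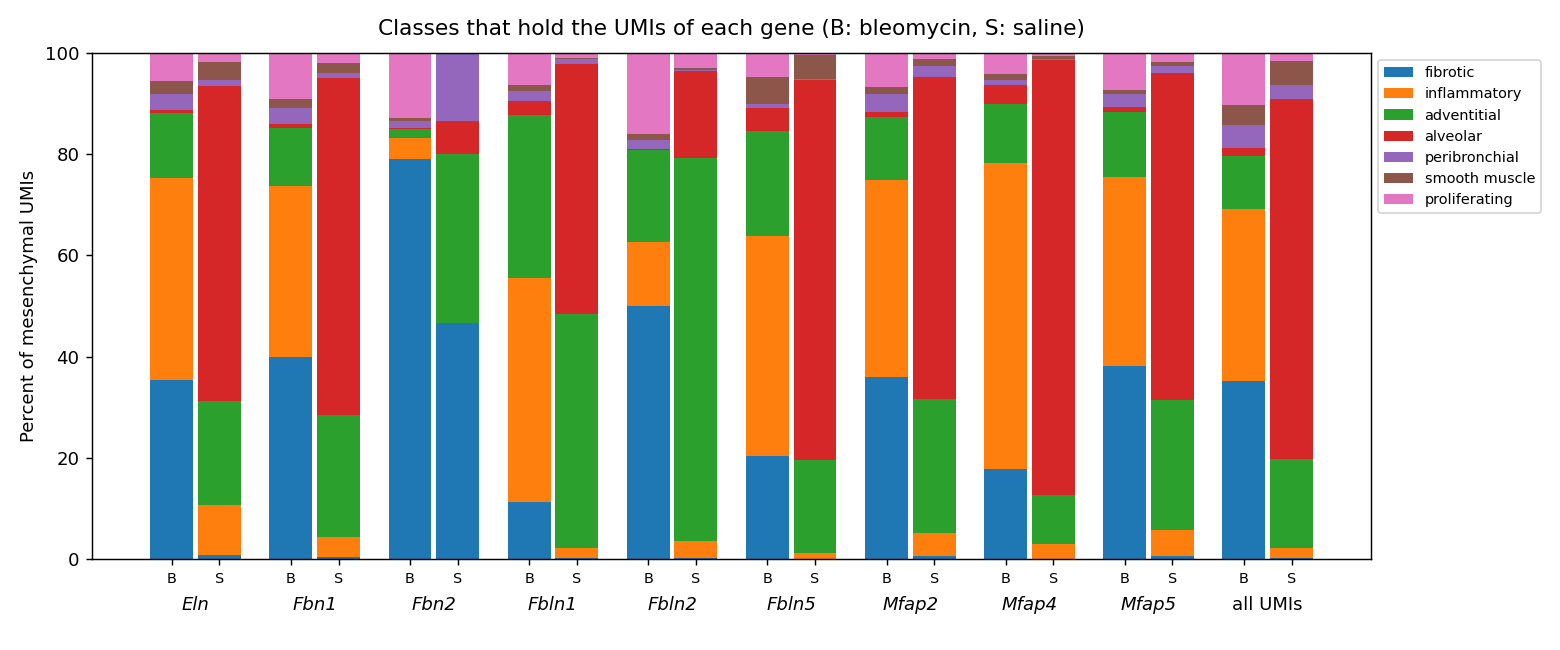
Percent of each gene's mesenchymal UMIs held by each class, in bleomycin (B) left of saline (S), with all UMIs at the right for scale. The fibrotic-like class (dark blue) holds 79.0% of the bleomycin Fbn2 UMIs and 49.9% of those of Fbln2; the saline Fbn2 bar rests on 15 UMIs.

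Between the finer fibrotic-like clusters of the bleomycin library the genes did not run together. The finer clustering gave the fibrotic name to a cluster of 622 cells led by Cthrc1, Col8a1 and Thbs4 and a cluster of 1469 cells led by Spp1, Fst and Penk. How many of their cells belong to the fibrotic-like class used above was not counted. Eln stood at 2058 CPM in the Cthrc1 cluster and 5903 CPM in the Spp1 cluster, 2.87-fold more in the Spp1 cluster. Fbln2 was the reverse, with 428 CPM in the Cthrc1 cluster and 147 CPM in the Spp1 cluster, and so was Fbn2, with 62.9 CPM in the Cthrc1 cluster and 36.3 CPM in the Spp1 cluster. Fbln5 also stood higher in the Cthrc1 cluster, at 36.8 CPM against 20.4 CPM in the Spp1 cluster. Fbln1 went with Eln, at 27.8 CPM in the Cthrc1 cluster and 63.7 CPM in the Spp1 cluster. Fbn1 differed little, at 883 CPM in the Cthrc1 cluster and 812 CPM in the Spp1 cluster, and so did Mfap2 (0.918) and Mfap5 (0.943), given as the Cthrc1 over the Spp1 cluster. These are levels of clusters drawn from the same cells and are given as a description.

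Fibrotic-like bleomycin cells of at least 2000 UMIs were also sorted by Cthrc1, which encodes a secreted protein and marks fibrotic fibroblasts. Each cell was thinned at random to 2000 UMIs and sorted by whether a Cthrc1 UMI remained. Cells without a Cthrc1 UMI in that draw can still hold some in the full counts, from which the CPM were taken. Cthrc1 also leads a cluster described above, so this sorting is not independent of the difference between those clusters. The 946 cells with a Cthrc1 UMI in the draw had 57.7 CPM of Fbn2, against 25.0 CPM in the 1885 cells without. Fbln2 stood at 322 CPM in cells with a Cthrc1 UMI and 159 CPM in cells without, and Fbln5 at 37.0 CPM with and 20.6 CPM without. Eln was lower in cells with a Cthrc1 UMI, at 3133 CPM with and 4755 CPM without, and Fbln1 likewise, at 39.2 CPM with and 63.0 CPM without. The median depth was 15836 UMIs in cells with a Cthrc1 UMI and 13856 in cells without.

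**Figure D4:**
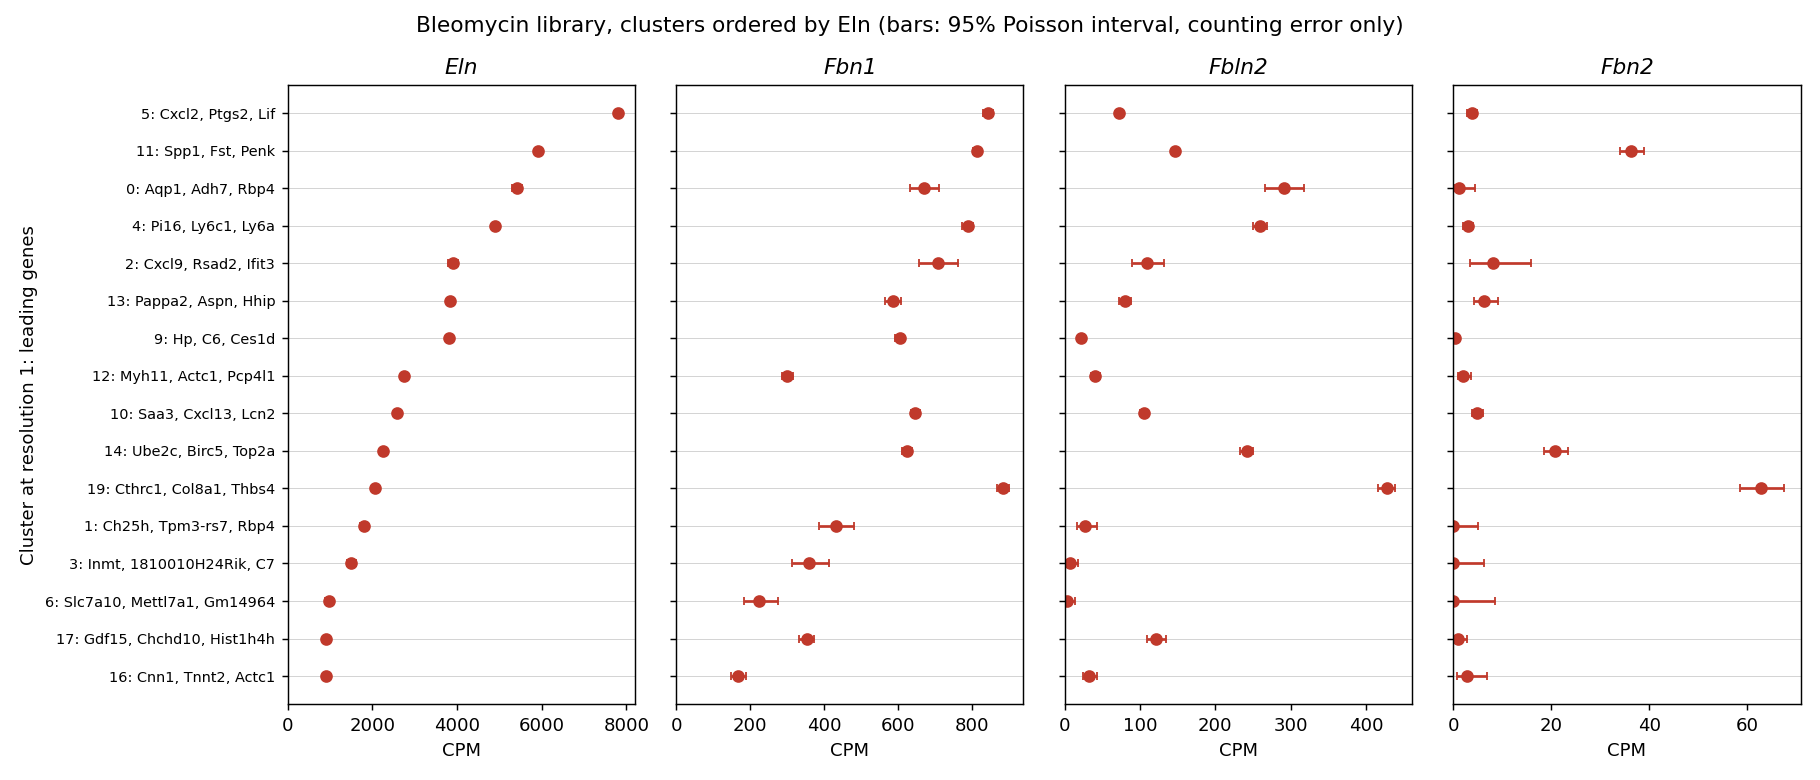
Level (CPM) of Eln, Fbn1, Fbln2 and Fbn2 in the 16 finer mesenchymal clusters of the bleomycin library, each labelled by its leading genes and ordered by Eln, with 95% Poisson intervals. The Cthrc1 cluster is highest for Fbn1, Fbln2 and Fbn2 but stands low in the order for Eln.

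Across all 16 finer mesenchymal clusters of the bleomycin library, Eln was highest in a cluster of 1146 cells led by Cxcl2, Ptgs2 and Lif, at 7805 CPM, and lowest in a muscle cluster led by Cnn1 and Tnnt2, at 894 CPM. The Cxcl2 cluster matched no marker list and was also highest for Mfap2 (280 CPM) and Mfap5 (1858 CPM). In saline its 58 cells had 3748 CPM of Eln, the highest of the saline clusters of at least 50 cells. The cluster of alveolar-fibroblast-like cells led by Slc7a10 was highest for Mfap4 (6572 CPM) and Fbln5 (206 CPM) and had 2.31 CPM of Fbln2. The adventitial-like cluster led by Aqp1 and Adh7 was highest for Fbln1, at 832 CPM. The spread between highest and lowest cluster was 8.73-fold for Eln, 5.28-fold for Fbn1, 6.09-fold for Mfap2, 11.9-fold for Mfap5, 19.8-fold for Mfap4, 30.2-fold for Fbln1, 34.1-fold for Fbln5 and 185-fold for Fbln2.

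The share of cells with a UMI was compared after each cell was thinned to 2000 UMIs, which left out 153 bleomycin and 144 saline mesenchymal cells. Eln was then found in 84.1% of bleomycin cells (83.4 to 84.8) and 53.4% of saline cells (52.3 to 54.5), beside 96.0% of bleomycin and 78.8% of saline cells before thinning. Fbn1 was found in 66.2% of bleomycin and 39.2% of saline cells, Fbln2 in 18.3% of bleomycin and 5.63% of saline cells, and Fbn2 in 2.47% of bleomycin and 0.0627% of saline cells. Mfap2 was found in 29.6% of bleomycin and 11.8% of saline cells, and Mfap5 in 72.2% of bleomycin and 50.7% of saline cells. These 6 shares were higher after bleomycin with intervals apart. Fbln1 was found in 26.4% of bleomycin and 40.4% of saline cells, Fbln5 in 8.61% of bleomycin and 21.1% of saline cells, and Mfap4 in 71.0% of bleomycin and 82.1% of saline cells, all 3 lower with intervals apart. Unthinned, the bleomycin shares were 93.1% for Fbn1, 10.4% for Fbn2, 64.0% for Fbln1, 49.2% for Fbln2, 29.1% for Fbln5, 74.5% for Mfap2, 89.7% for Mfap4 and 88.0% for Mfap5. The unthinned saline shares were 72.2% for Fbn1, 0.160% for Fbn2, 66.9% for Fbln1, 13.7% for Fbln2, 49.1% for Fbln5, 32.8% for Mfap2, 90.4% for Mfap4 and 69.4% for Mfap5.

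Cells of the epithelial-gene cluster, set beside these as cells outside the mesenchymal classes, had an Eln UMI in 21.5% of 158 bleomycin and 9.0% of 100 saline cells at 2000 UMIs. Their median depths were 7380 UMIs in bleomycin and 5612 in saline. Fbln5 was there in 23.4% of bleomycin and 49% of saline cells, above its mesenchymal shares, so this cluster gives no low reference for Fbln5. What part RNA from outside the cell had in its mesenchymal shares was not tested. Fbn2 was there in 0.633% of bleomycin cells (up to 3.48%) and in 0 of 100 saline cells (up to 3.62%), intervals that hold its shares over all mesenchymal cells. For the other genes the mesenchymal shares lay above those of this cluster in both libraries. In fibrotic-like bleomycin cells at 2000 UMIs, Fbn2 was found in 6.75% (5.85 to 7.73) and Fbln2 in 25.0% (23.4 to 26.6). In peribronchial-like cells Mfap5 was found in 45.3% of bleomycin (41.2 to 49.4) and 41.3% of saline cells (36.4 to 46.3), and in smooth-muscle-like cells in 17.8% of bleomycin (14.6 to 21.3) and 16.2% of saline cells (12.5 to 20.5). Those shares overlapped although the summed levels differed by over 2-fold.

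Elastin was uneven between cells. The median mesenchymal cell had 21.9 Eln UMIs per 10000 in bleomycin and 3.70 in saline, and the 10% of cells with most Eln held 39.8% of its UMIs in bleomycin and 48.4% in saline. For Fbn1 the top 10% held 22.6% in bleomycin and 32.8% in saline, and the median cell had 5.94 UMIs per 10000 in bleomycin and 2.18 in saline. Fibrotic-like bleomycin cells with an Eln UMI at 2000 UMIs had an Fbn1 UMI in 75.0% of cases, against 60.7% of those without Eln. Mfap5 was found in 81.2% of the cells with Eln and 61.2% of those without, and Mfap4 in 62.3% with and 39.3% without. Fbln2 went the other way, in 22.5% of cells with Eln (20.8 to 24.3) and 35.1% of cells without (31.1 to 39.2).

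Among the partners of the fibre, lists were chosen by function. Of 17 genes for assembly partners, 13 could be tested over all mesenchymal cells, with a median log2 ratio of -0.06 beside -0.04 for all genes. The rule called 3 of them higher (5.56% of all genes) and 2 lower (5.91%). In the cluster of epithelial genes 4 of 12 were higher (10.8% of all there) and 1 was lower (6.13%). Ltbp2, which binds fibrillin, had 646 CPM in bleomycin and 66.8 CPM in saline cells, 9.68-fold higher. Ltbp4, which is needed for elastic fibre assembly with Fbln5 in mice, had 306 CPM in bleomycin and 1008 CPM in saline cells, 3.30-fold lower. The 2 close fibulin relatives split as well: Efemp2, or fibulin-4, which recruits lysyl oxidase, had 139 CPM in bleomycin and 64.5 CPM in saline (2.15-fold higher), and Efemp1, or fibulin-3, had 141 CPM in bleomycin and 430 CPM in saline (3.04-fold lower). Thsd4, a fibrillin-binding protein, had 13.4 CPM in bleomycin and 5.19 CPM in saline (2.58-fold higher). Within classes Ltbp2 was higher in adventitial-like (4.35-fold), alveolar-fibroblast-like (6.33-fold), peribronchial-like (10.7-fold) and smooth-muscle-like cells (10.1-fold). Ltbp4 was lower in inflammatory-like (0.462), peribronchial-like (0.447) and proliferating cells (0.346).

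Of 5 lysyl oxidases, which cross-link elastin and collagen, 4 could be tested over all mesenchymal cells, with a median log2 ratio of 1.16 beside -0.04 for all genes. The rule called 2 higher (5.56% of all genes) and none lower (5.91%). Loxl2 had 108 CPM in bleomycin and 41.1 CPM in saline (2.64-fold higher), and Loxl3 25.5 CPM in bleomycin and 9.62 CPM in saline (2.65-fold higher). Lox had 412 CPM in bleomycin and 217 CPM in saline (1.89), and Loxl1, which in mice is needed to keep elastic fibres, had 373 CPM in bleomycin and 296 CPM in saline (1.26), neither of them called. In peribronchial-like cells all 4 tested were higher (6.32% of all genes tested there): Lox 3.45-fold, Loxl1 2.55-fold, Loxl2 2.66-fold and Loxl3 2.07-fold. In the cluster of epithelial genes the 3 that could be tested, Lox, Loxl1 and Loxl2, were also higher (10.8% of all there). Of 10 enzymes that can degrade elastin 5 could be tested, and Mmp14 (199 CPM in bleomycin and 74.4 CPM in saline, 2.67-fold) and Ctsk (189 CPM in bleomycin and 55.9 CPM in saline, 3.39-fold) were higher (5.56% of all genes) and none was lower (5.91%), with a list median log2 ratio of 0.45 beside -0.04. In the cluster of epithelial genes 4 of 5 were higher, Mmp2, Mmp3, Mmp14 and Ctsk. What part RNA from outside the cell had in these lists was not tested. Mmp2, Mmp3 and Ctsl did not pass the rule over all cells, with log2 ratios of 0.45, -0.02 and -0.36. Mmp12, the elastase of macrophages, was at 0.276 CPM in bleomycin and 0.0679 CPM in saline cells, under the level the rule needs.

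Over 13 class-by-library profiles of mesenchymal cells, Eln, Fbn1, Fbln2, Mfap2 and Mfap5 ran alike, with Pearson r of log2(CPM + 10) between 0.68 and 0.91 for their 10 pairs. These profiles share 2 libraries and are a description of them. Fbln5 ran apart from Eln (r -0.12) and Fbn2 (-0.52), and Mfap4 was nearest to Fbln1 (0.70) among the 9. Outside the 9, among 4268 genes, the profile most like that of Eln was Sparc (0.94), which encodes a collagen-binding matrix protein, then Micos13 and Dusp14. Fbn1 was nearest to Slc38a10, Mgp and Sra1, and Fbn2 to Lgals7, Slc20a1 and Fam3c. Fbln1 was nearest to Cygb, Rbp4 and Gfpt2, Fbln2 to Yipf5, Spcs3 and Rrbp1, and Fbln5 to Cped1, Sash1 and Slit3. For Mfap2 these were Enc1, Mcfd2 and Igf1, for Mfap4 H6pd, Tslp and Fkbp9, and for Mfap5 Gpr153, Tmem9b and Mcfd2.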

How the data were processed

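Per the submitters' processing notes, the reads were processed with Cell Ranger 6.1.2 on mm10, and the deposited files hold raw UMI counts per gene and cell barcode, 1 library for bleomycin and 1 for saline. Cells with at least 500 genes and at most 10% mitochondrial UMIs were kept, and cells marked as doublets by Scrublet were left out. It marked 66 saline but 0 bleomycin cells, and is taken to have failed there, so doublets may stay among the bleomycin cells. The 10001 bleomycin and 8284 saline cells were clustered in scanpy 1.11.5 (2000 variable genes without the 9 genes and their partners, 30 components, 15 neighbours, Leiden resolution 0.5 with igraph 0.11.9). A cluster took the name of 1 of 17 marker lists whose genes were raised in it. Counts were summed per class and library, scaled to CPM and compared by the size rule in classes of at least 50 cells per library. Intervals are exact (Poisson, Clopper-Pearson and conditional binomial, scipy 1.17.1). All 9 genes and any partner gene may be named, and for each of the 9 the 3 genes of most similar profile among those of at least 50 CPM in 1 profile. The Cthrc1 split was chosen after values were seen, and members and lists were chosen with earlier results of these data known. Alternatives covered scaling, the low-value filter, clustering, cell filter, doublets, mixture weights and depth. The size rule was tested on simulated counts.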

Additional observations from a re-analysis of the deposited data

Results flagged for a closer look

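2 genes stood at least 1.5-fold above 1 in 1 class and at least 1.5-fold below 1 in another. Fbln1 stood at 1.92 (47.1 CPM in bleomycin and 24.5 CPM in saline) in smooth-muscle-like cells and at 0.432 in proliferating cells. Mfap4 stood at 2.11 in peribronchial-like cells and at 0.665 (632 CPM in bleomycin and 951 CPM in saline) in proliferating cells. Other genes stood on both sides of 1 by less, among them Mfap5, at 2.45 in peribronchial-like and 0.882 in inflammatory-like cells, and Fbln2, at 2.81 in proliferating and 0.895 in inflammatory-like cells. The difference between classes was not tested.

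Some of the 9 genes also met the size rule against saline in clusters outside the mesenchymal comparisons. A cluster of immune genes, led by Igkc, Iglc1 and Igha, had 70 bleomycin cells with 3810 CPM of Eln, 508 CPM of Fbn1, 68.9 CPM of Fbln2, 149 CPM of Mfap2, 1089 CPM of Mfap4 and 828 CPM of Mfap5. Its median cell had 3.33 Eln UMIs per 10000, and the 10% of cells with most Eln held 58.2% of these UMIs. The mesothelial-like cluster had 117 bleomycin cells with 2184 CPM of Eln, 111 CPM of Fbln2, 244 CPM of Mfap4 and 335 CPM of Mfap5. Its Mfap4 level lay under the 456 CPM of the epithelial-gene cluster, and the other levels listed lay above that cluster's. Both clusters have under 50 saline cells, so no comparison is drawn.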

How the results depend on the processing

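Of 120 alternative values for counts of called genes, 99 stayed within 1.5 times the reported count and 21 did not. With the partners and the 9 genes among the clustering genes, 1 gene was lower in adventitial-like and 1 in inflammatory-like cells, against none reported. Alveolar-fibroblast-like cells had 2 genes higher with no filter on low values, 4 at the finer resolution and 3 with the stricter cell filter. That filter left the Slc7a10 cluster alone in the class, and it also gave 1 lower in inflammatory-like cells. Scaling by the median ratio gave 1 lower in peribronchial-like cells. Without the cells of highest doublet scores, 1 was lower in peribronchial-like and 2 in proliferating cells, and 3 were higher in smooth-muscle-like cells, where Mfap5 turned to 0.857. Without a filter 4 elastin-degrading enzymes were higher. With bleomycin weights 1 gene was past 2-fold. Taking off the level of the epithelial-gene cluster, chosen after seeing the data, left 1 higher and 1 lower in adventitial-like, 0 higher in alveolar-fibroblast-like, 2 lower in inflammatory-like, 1 lower in peribronchial-like, 1 higher and 2 lower in proliferating, and 2 higher and 0 lower in smooth-muscle-like cells, where a gene with nothing left in saline, such as Fbn2 in proliferating cells, has no ratio and is not counted. The cause was not tested. Of 371 alternatives for single ratios, 354 kept their call, 11 gained one, 5 lost one and 1 turned round. Scaling moved the median of all genes by over 0.1 (log2) in proliferating cells alone, by 0.12. At the finer resolution inflammatory-like cells and under the stricter filter proliferating cells could not be compared, with under 50 saline cells. No paired analysis was possible because each group has 1 library. The saline levels of Fbn2 (15 UMIs) and of Fbln2 in smooth-muscle-like (7) and peribronchial-like cells (5) rest on few counts, so those ratios have wide intervals.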
